A study of Mus musculus with 9 samples.

Results

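The genes described here are 7 components of Nodal signalling: Nodal itself, the activin type II receptor gene Acvr2b, the secreted antagonist genes Lefty1, Lefty2 and Cer1, and the intracellular antagonist genes Smad7 and Skil. They were chosen by name, with earlier results of these data known. Their probes were found through the RefSeq accession that the array annotation gives each probe. These genes are 7 of the 20660 genes named on the array and 7 of the 15016 that were tested. RNA came from mouse embryonic stem (ES) cells of a PKm1 knock-in line, a PKm2 knock-in line and a wild type line, PKm1 and PKm2 being the isoforms of the glycolytic enzyme pyruvate kinase M. Each line was sampled undifferentiated in medium with LIF, the cytokine that maintains mouse ES cells (day 0), and as floating embryoid bodies after 3 and 7 days without LIF (day 3 and day 7), to compare the lines as they differentiate. A single 1-colour Agilent array was run for each line on each day, 9 in all. The labels name no other allele or agent, and whether a line is 1 clone or grew on feeder cells is not given in the sources used.

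Nodal is a secreted ligand of the TGF-beta family. It binds activin receptors together with an EGF-CFC co-receptor, and the receptors phosphorylate Smad2 and Smad3, which enter the nucleus with Smad4 and act on target genes with partners such as FoxH1. Nodal and the Lefty genes are themselves targets, so that the pathway holds a positive and a negative feedback loop. In the early mouse embryo Nodal signalling maintains the epiblast, patterns the anterior visceral endoderm and induces mesoderm and endoderm.

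RefSeq windows around a start site, 250 bases before it to 50 after it, were at hand for 3 of the 7 genes, in build GRCm38.p6. They are shown because the pathway acts on DNA through Smad proteins and FoxH1, whose motifs can be read in them. The FoxH1-type core AATNNACA (TGTNNATT on the other strand) and the Smad box CAGAC, which reads GTCTG on the other strand, were searched on both strands, and the end of the first can overlap the start of the second. Matches are in capitals, and each sequence runs 5′ to 3′ on the strand of its gene. The window of Nodal, chr10:61417722-61418021 on the + strand, held neither motif. That of Acvr2b, chr9:119401928-119402227 on the + strand, held 1 Smad box on the other strand, with its first base in the window at -233 from the start site. That of Cer1, chr4:82885102-82885401 on the - strand, held 1 Smad box at -213.
Nodal: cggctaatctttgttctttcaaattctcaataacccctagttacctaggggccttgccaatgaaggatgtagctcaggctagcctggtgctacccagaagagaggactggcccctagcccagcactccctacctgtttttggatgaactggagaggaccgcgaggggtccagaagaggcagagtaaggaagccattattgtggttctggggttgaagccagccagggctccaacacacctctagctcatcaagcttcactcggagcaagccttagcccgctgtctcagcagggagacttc
Acvr2b: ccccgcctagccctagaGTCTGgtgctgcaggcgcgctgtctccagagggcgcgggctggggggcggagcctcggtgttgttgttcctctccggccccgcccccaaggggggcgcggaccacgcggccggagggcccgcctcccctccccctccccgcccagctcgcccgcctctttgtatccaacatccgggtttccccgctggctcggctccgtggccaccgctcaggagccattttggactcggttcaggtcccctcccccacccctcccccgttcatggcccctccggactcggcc
Cer1: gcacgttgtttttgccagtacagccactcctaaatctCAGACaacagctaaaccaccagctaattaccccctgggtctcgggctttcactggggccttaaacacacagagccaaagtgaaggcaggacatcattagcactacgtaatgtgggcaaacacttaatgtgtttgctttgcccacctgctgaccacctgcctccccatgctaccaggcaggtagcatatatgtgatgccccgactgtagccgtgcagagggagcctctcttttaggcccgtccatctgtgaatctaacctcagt
Of all 32851 such windows, 12.2 percent held the FoxH1-type core and 49.6 percent a Smad box. A match is a run of letters, not a measured binding site.

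Signals are on a log2 scale after scaling each array to its 75th percentile, so that a difference of 1 is a doubling. Depending on the array, 54.2 to 61.6 percent of spots passed the scanner's test for being well above background. The 10 markers of undifferentiated ES cells passed it on all 9 arrays, days 3 and 7 included, and averaged 12.91 to 14.38. Markers of other cells moved with day. The 10 fibroblast and feeder cell markers had a summed scaled signal of 4614 to 18998 at day 0, 800 to 1755 at day 3 and 616 to 6159 at day 7. The 12 visceral endoderm markers summed to 653 to 876 at day 0, 346 to 686 at day 3, and 351285, 3568 and 6119 at day 7 in the PKm1 knock-in, PKm2 knock-in and wild type lines. Of these 12, 5 to 9 were well above background at day 0, 6 to 8 at day 3 and 11 to 12 at day 7. Afp, Ttr and Apoa1 were not well above background on any array of days 0 and 3. In bulk RNA, fewer cells of a type and less RNA per cell cannot be told apart.

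Days were compared with the 3 lines as replicates and lines with the 3 days as replicates, in 1 limma model of line and day over all tested genes. A gene was called at a Benjamini-Hochberg adjusted p under 0.05. P-values measure only the spread between these arrays, since each genotype is 1 cell line with 1 array per day, and whether lines changed differently over time could not be tested. The arrays lay on 3 slides, the third of which held only the PKm2 knock-in sample of day 7.

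Nodal, the ligand, was well above background on all 9 arrays. On days 0, 3 and 7 Nodal had a log2 signal of 12.66, 12.76 and 11.34 in PKm1 knock-in cells, 12.47, 12.90 and 12.57 in PKm2 knock-in cells, and 13.02, 13.68 and 12.72 in wild type cells. The lowest value was that of PKm1 knock-in embryoid bodies at day 7 and the highest that of wild type embryoid bodies at day 3. Nodal averaged 13.11 ± 0.49 at day 3, against 12.72 ± 0.28 at day 0 (SD, n = 3 lines each), a difference of 0.40 ± 0.30 (SE) that was not called (adjusted p = 0.438), although it was positive in 3 of 3 lines. At day 7 it averaged 12.21 ± 0.76, which differed from day 3 by -0.90 ± 0.30, with lower values in 3 of 3 lines and no overlap, and was not called (adjusted p = 0.113). Between those days 31.7 percent of all genes had groups that did not overlap. From day 0 the day 7 level of Nodal differed by -0.51 ± 0.30 (adjusted p = 0.47).

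Acvr2b encodes an activin type II receptor that binds Nodal and activins. The log2 signal of Acvr2b on days 0, 3 and 7 was 13.38, 13.42 and 13.04 in PKm1 knock-in cells, 13.17, 13.16 and 13.16 in PKm2 knock-in cells, and 12.36, 12.77 and 12.58 in wild type cells. It hardly varied with day, and every knock-in array was above every wild type array. Groups did not overlap for 10.2 percent of all genes between the PKm1 knock-in and wild type lines. Between the PKm2 knock-in and wild type lines the share was 14.4 percent. The range of Acvr2b over the arrays was 1.06, against 1.37 for the median gene. Day 3 differed from day 0 by 0.15 (95 percent interval -0.31 to 0.61, adjusted p = 0.665) and day 7 from day 0 by -0.04 (-0.50 to 0.42, adjusted p = 0.941).

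**Figure D1:**
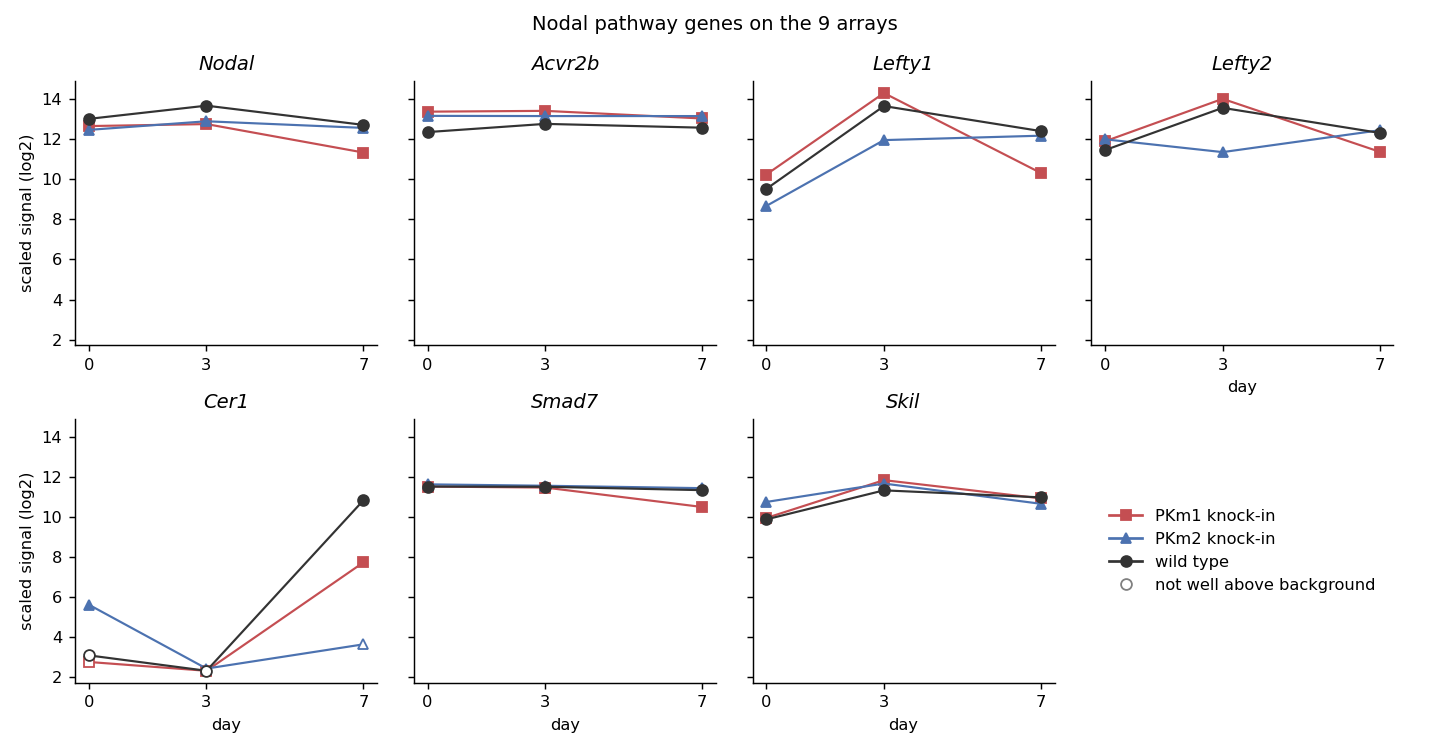
Scaled signal (log2) of the 7 genes against day, with 1 array per point and a line for the PKm1 knock-in, PKm2 knock-in and wild type cells; open points were not well above background. Lefty1 and Skil lie higher at day 3 than at day 0 in all 3 lines, and Cer1 is well above background on 3 arrays.

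Lefty1 and Lefty2 encode secreted inhibitors that bind Nodal and its co-receptor. Lefty1 showed a log2 signal on days 0, 3 and 7 of 10.24, 14.31 and 10.32 in PKm1 knock-in cells, 8.67, 11.96 and 12.18 in PKm2 knock-in cells, and 9.52, 13.66 and 12.41 in wild type cells. Every day 3 array was above every day 0 array. Lefty1 rose 14.3-fold by day 3, to 13.31 ± 1.21 against 9.48 ± 0.79 at day 0 (SD, n = 3 lines each), a log2 difference of 3.83 ± 0.76 (adjusted p = 0.0477). The difference was 4.06 in the PKm1 knock-in, 3.30 in the PKm2 knock-in and 4.14 in the wild type line. Of these, the PKm2 knock-in pair alone came from arrays of 1 slide.

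At day 7 the lines stood in another order in Lefty1 than at day 3, with an SD among lines of 1.15 at day 7 and 1.21 at day 3. Their day 7 arrays each lay on a different slide. The PKm1 knock-in line was near its own day 0 level, while the PKm2 knock-in and wild type lines stood at 12.18 and 12.41. Day 7 differed from day 0 by 2.16 ± 0.76 (adjusted p = 0.284), made up of 0.08 in the PKm1 knock-in, 3.51 in the PKm2 knock-in and 2.89 in the wild type line. It differed from day 3 by -1.67 ± 0.76 (adjusted p = 0.188), made up of -3.99 in the PKm1 knock-in, 0.21 in the PKm2 knock-in and -1.25 in the wild type line.

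On days 0, 3 and 7 Lefty2 gave a log2 signal of 11.90, 14.02 and 11.38 in PKm1 knock-in cells, 12.00, 11.36 and 12.45 in PKm2 knock-in cells, and 11.46, 13.57 and 12.32 in wild type cells. It was highest at day 3 in the PKm1 knock-in and wild type lines and lowest at day 3 in the PKm2 knock-in line. Lefty2 averaged 12.98 ± 1.43 at day 3, against 11.79 ± 0.29 at day 0 (SD, n = 3 lines each), and the difference of 1.19 ± 0.69 was not called (adjusted p = 0.316). By line it was 2.12 in the PKm1 knock-in, -0.65 in the PKm2 knock-in and 2.11 in the wild type. At day 7 Lefty2 averaged 12.05 ± 0.59, which differed from day 0 by 0.26 ± 0.69 (adjusted p = 0.881) and from day 3 by -0.93 ± 0.69 (adjusted p = 0.385). Lefty1 and Lefty2 are close paralogs, and how far their probes tell them apart was not tested.

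Cer1 encodes Cerberus, a secreted inhibitor of Nodal and BMP ligands that marks the anterior visceral endoderm. The scaled signal of Cer1, on a linear scale with a floor of 5, was 6.79, 5 and 212 on days 0, 3 and 7 in PKm1 knock-in cells, 49.2, 5.4 and 12.4 in PKm2 knock-in cells, and 8.53, 5 and 1820 in wild type cells. It was well above background on 3 arrays, day 7 of the PKm1 knock-in and wild type lines and day 0 of the PKm2 knock-in line. Cer1 entered the tests through those arrays, and the others give only a bound, taken from the dimmest signal well above background on the array. Cer1 was at least 8.77-fold higher at day 7 than at day 0 in the PKm1 knock-in line and at least 110-fold higher in the wild type line, each pair on 1 slide. In the PKm2 knock-in line it was at least 2.32-fold lower. Each of these folds sets 1 array against 1 array, with no test.

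Between day 7 and day 3 Cer1 was not called by limma (adjusted p = 0.114). Setting 1 array against 1, it was at least 11.1-fold higher at day 7 in the PKm1 knock-in and at least 111-fold higher in the wild type line. In the PKm2 knock-in line Cer1 was not well above background on either day, so no size over the 3 lines is given. Day 7 against day 0 was not called (adjusted p = 0.389), and no size is given because 2 of 3 arrays at day 7 and 1 of 3 at day 0 were well above background. At day 7 Cer1 was 8.58-fold lower in the PKm1 knock-in and at least 85.7-fold lower in the PKm2 knock-in than in the wild type line. The day 7 arrays each lay on a different slide, so these folds set 1 array against 1 across slides, with no test. The visceral endoderm markers were in another order on those arrays, with a mean log2 signal of 13.67 in PKm1 knock-in, 7.37 in PKm2 knock-in and 8.45 in wild type cells. The 6 anterior visceral endoderm markers averaged 9.94 in PKm1 knock-in, 7.48 in PKm2 knock-in and 9.68 in wild type cells. Their part in the Cer1 values was not tested. At day 0, on 1 slide, Cer1 was at least 2.98-fold higher in the PKm2 knock-in than in the wild type line.

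**Figure D2:**
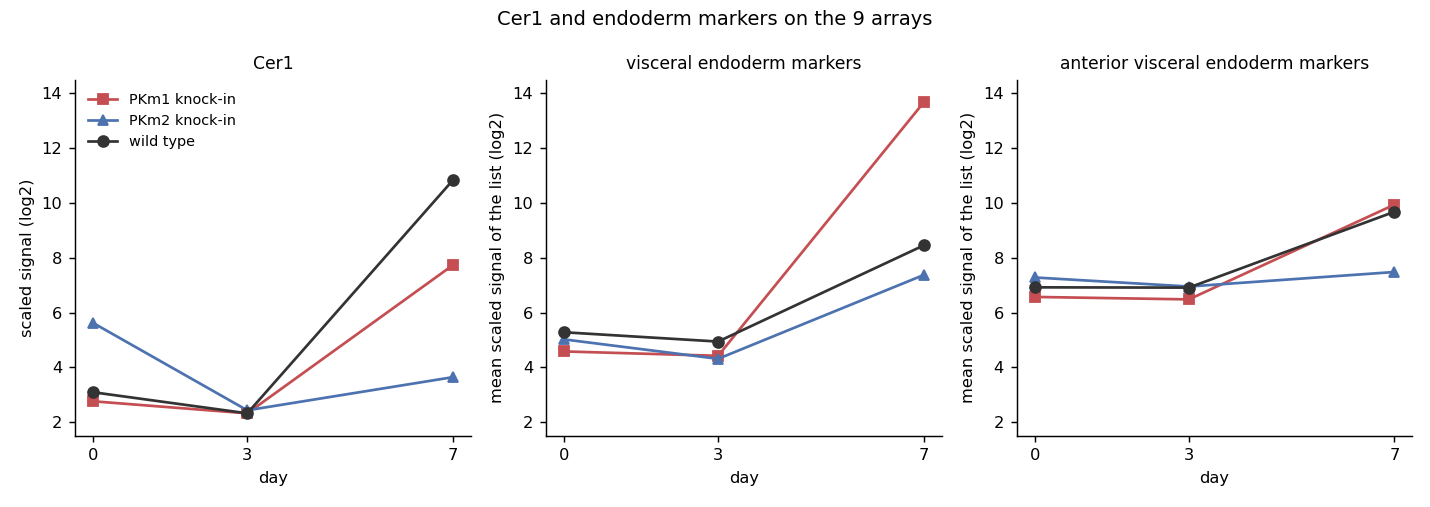
Scaled signal (log2) of Cer1, and mean scaled signal (log2) of 12 visceral endoderm and 6 anterior visceral endoderm markers, against day in the PKm1 knock-in, PKm2 knock-in and wild type lines (1 array per point). At day 7 Cer1 is highest in wild type cells at 10.83, while the visceral endoderm list is highest in PKm1 knock-in cells at 13.67; Cer1 points other than 10.83, 7.73 and 5.62 were not well above background.

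Smad7 encodes an inhibitory Smad that blocks the activated type I receptor. Its log2 signal on days 0, 3 and 7 was 11.52, 11.47 and 10.50 in PKm1 knock-in cells, 11.63, 11.56 and 11.44 in PKm2 knock-in cells, and 11.52, 11.51 and 11.34 in wild type cells. The values lay between 11.34 and 11.63 on 8 arrays, and the PKm1 knock-in array of day 7 lay below them at 10.50. Day 3 differed from day 0 by -0.04 (95 percent interval -0.62 to 0.53, adjusted p = 0.936), and day 7 from day 0 by -0.46 ± 0.24 (adjusted p = 0.43). The array with the low Smad7 value also had the lowest Nodal signal, the lowest mean of the ES cell markers, 12.91, and the highest mean of the visceral endoderm markers, 13.67. Their part in the Smad7 and Nodal values was not tested.

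Skil, also called SnoN, encodes a co-repressor that binds Smad complexes. Its brighter probe was spotted 10 times per array, with an SD of 0.05 to 0.11 among spots. On days 0, 3 and 7 Skil had log2 signals of 9.95, 11.84 and 10.93 in PKm1 knock-in cells, 10.75, 11.67 and 10.66 in PKm2 knock-in cells, and 9.88, 11.33 and 10.98 in wild type cells. Every day 3 array was above every array of day 0 and of day 7. Skil rose 2.68-fold by day 3, to 11.61 ± 0.26 against 10.19 ± 0.49 at day 0 (SD, n = 3 lines each), a log2 difference of 1.42 ± 0.28 (adjusted p = 0.0481). The difference was 1.89 in the PKm1 knock-in, 0.92 in the PKm2 knock-in and 1.45 in the wild type line, and the PKm2 knock-in pair was the one on 1 slide. A second, dimmer Skil probe gave 1.53 ± 0.29. At day 7 Skil averaged 10.86 ± 0.17, which differed from day 3 by -0.76 ± 0.28 (adjusted p = 0.138) and from day 0 by 0.67 ± 0.28 (adjusted p = 0.352).

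Between day 3 and day 0, then, 2 of the 7 genes were called, both higher, and 4.05 percent of all tested genes were called in either direction. The 7 genes were chosen with earlier results of these data known, so setting 2 of 7 beside that share is a description, not a test. The median difference of the 7 genes was 0.40 and that of all genes 0.09. The groups did not overlap for Lefty1 and Skil, and 36.3 percent of all genes had groups that did not overlap. Cer1 is left out of that count, since 1 of its 6 arrays of days 0 and 3 was well above background. Both calls lay close to the threshold. With quantile normalization Lefty1 had an adjusted p of 0.062 and Skil of 0.0715, and with the wild type line left out 0.328 and 0.316. Of all genes called, 45.7 percent were higher, against 30.5 percent with arrays scaled to the detected probes, where the median of all genes was -0.08, and 60.3 percent after normexp background correction. The fibroblast and feeder cell markers were lower at day 3 than at day 0 in all 3 lines, with 6 to 8 of 10 above background at day 3 and 9 of 10 at day 0, and their part in these results was not tested.

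Between day 7 and day 0 limma called 0 of the 7 genes, where 0.0932 percent of all genes were called. An unadjusted p under 0.05 was found for 1 of the 7 and for 14.3 percent of all genes. Between day 7 and day 3 it called 0 of 7 and 0 percent of all genes, with an unadjusted p under 0.05 for 3 of the 7 and for 30.3 percent of all genes. The groups of these days did not overlap for 31.7 percent of all genes. That comparison rested on the PKm2 knock-in array of day 7. When it was left out, 2 of the 7 genes were called, with 15.9 percent of all genes called. Nodal was lower at day 7 (-1.20, adjusted p = 0.0424). Cer1, the other gene called, was at least 33.3-fold higher at day 7, from 2 arrays of day 7 against a bound, since it was well above background on 0 of 3 arrays of day 3. Its call carries no separate weight, because those 2 arrays are among the 3 through which Cer1 entered the tests.

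**Figure D3:**
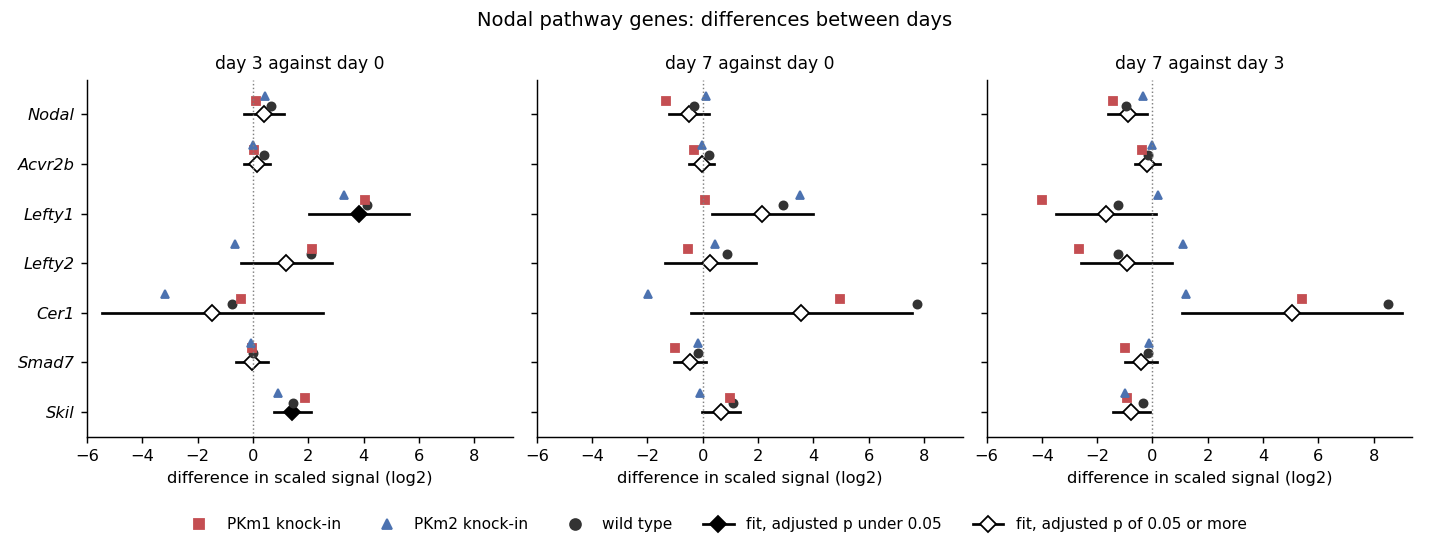
Log2 differences in scaled signal between days for the 7 genes. Diamonds and bars give the fitted difference and its 95 percent interval, and coloured points give the difference in each of the 3 lines; the 2 filled diamonds, at an adjusted p under 0.05, are Lefty1 (3.83) and Skil (1.42) at day 3 against day 0. Values of Cer1 include arrays at or near the floor.

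Between the PKm1 knock-in and the wild type line Acvr2b and Nodal stood furthest apart relative to their errors. Acvr2b averaged 13.28 ± 0.21 in PKm1 knock-in and 12.57 ± 0.20 in wild type cells (SD, n = 3 days each), a difference of 0.71 ± 0.19 (adjusted p = 0.231) that was positive on 3 of 3 days. Nodal averaged 12.26 ± 0.80 in PKm1 knock-in and 13.14 ± 0.49 in wild type cells. The difference of -0.89 ± 0.30 (adjusted p = 0.308) was -0.36, -0.92 and -1.39 on days 0, 3 and 7. The differences of Lefty1 (-0.24 ± 0.76), Lefty2 (-0.02 ± 0.69), Smad7 (-0.29 ± 0.24) and Skil (0.18 ± 0.28) were smaller than 2 of their standard errors. Limma called 0 of 7 genes, where 0.0133 percent of all genes were called, and an unadjusted p under 0.05 was found for 2 of the 7 and for 12.3 percent of all genes.

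In the PKm2 knock-in line Acvr2b averaged 13.17 ± 0.00, against 12.57 ± 0.20 in the wild type line, a difference of 0.59 ± 0.19 (adjusted p = 0.266), positive on 3 of 3 days. On day 0, where both arrays were on 1 slide, it was 0.81. Lefty1 averaged 10.94 ± 1.97 in PKm2 knock-in and 11.86 ± 2.13 in wild type cells, a difference of -0.93 ± 0.76 (adjusted p = 0.635). Nodal differed by -0.50 ± 0.30, with lower values in the PKm2 knock-in on 3 of 3 days, and Lefty2 by -0.51 ± 0.69. Smad7 differed by 0.08 ± 0.24 and Skil by 0.30 ± 0.28. Limma called 0 of 7 genes, where 0.0133 percent of all genes were called, and an unadjusted p under 0.05 was found for 1 of the 7 and for 13.4 percent of all genes. Both knock-in lines were set against the same wild type arrays, so their Acvr2b differences share 3 of their values.

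Between the PKm2 and the PKm1 knock-in line limma called 0 of 7 genes, with 0 percent of all genes called, and an unadjusted p under 0.05 was found for 0 of the 7 and for 7.94 percent of all genes. The Lefty genes differed by day. On day 3, on arrays of 1 slide, Lefty1 differed by -2.34 and Lefty2 by -2.67 on the log2 scale between PKm2 and PKm1 knock-in cells, and on day 7 by 1.86 and 1.07. Over the 3 days the difference was -0.69 for Lefty1 (95 percent interval -2.50 to 1.13) and -0.49 for Lefty2 (-2.14 to 1.15), intervals that do not show that the lines are alike. Nodal differed by 0.39 ± 0.30 and Acvr2b by -0.12 ± 0.19. Smad7 differed by 0.38 ± 0.24, with 0.95 on day 7 and 0.10 and 0.08 on days 0 and 3, and Skil by 0.12 ± 0.28. Cer1 was well above background on 1 of 3 arrays of each line, so that no fitted size is given for it between lines.

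**Figure D4:**
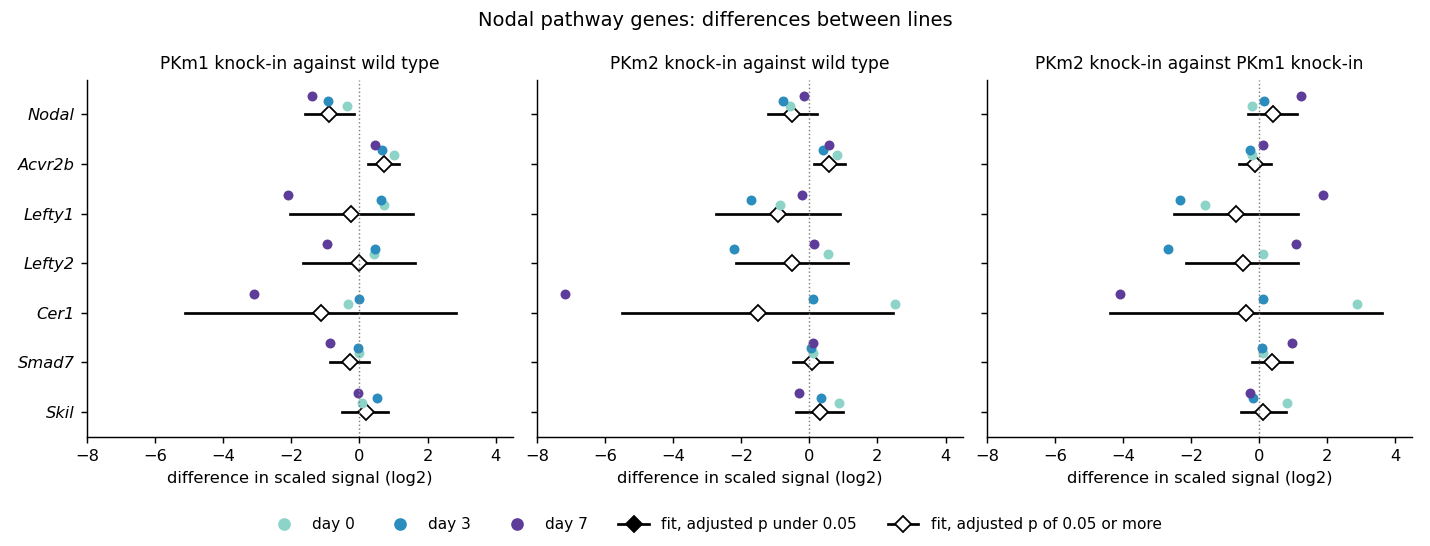
Log2 differences in scaled signal between lines for the 7 genes. Diamonds and bars give the fitted difference and its 95 percent interval, all open since none was called, and coloured points give the difference on each day. Acvr2b lies above 0 on all 3 days in both knock-in lines against wild type, at 0.71 and 0.59 in the fit; values of Cer1 include arrays at or near the floor.

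Of 43 other genes of the pathway, 40 were tested, and Acvr1c, Bambi and Mixl1 were well above background on too few arrays. Between day 3 and day 0, 1 of the 40 was called higher and 0 were called lower, where 4.05 percent of all genes were called. In the fit 18 of the 40 were higher and 22 lower, with a median difference of -0.11. These counts of called genes depended on the arrays used. The number called was 0 when all PKm1 knock-in arrays or all wild type arrays were left out, where 0 of all tested genes were called. It was also 0 when the day 0 array of any line, or the day 3 array of PKm1 knock-in or of wild type cells, was left out. In those fits 2 to 108 of all genes were called. Leaving out all PKm2 knock-in arrays gave 3, where 284 of all genes were called. Without the day 7 array of that line 5 were called, where 1260 of all genes were called. With the slide as a block the number was 5 beside 578, and from the 6 arrays compared 5 beside 1433. The main fit called 608 of the 15016 genes. The gene called in the main fit was Gdf1, which encodes a ligand that forms heterodimers with Nodal. Gdf1 gave log2 signals on days 0, 3 and 7 of 10.63, 12.87 and 11.04 in PKm1 knock-in cells, 9.90, 12.03 and 11.18 in PKm2 knock-in cells, and 9.59, 11.98 and 10.39 in wild type cells. Every day 3 array lay above every other array. Gdf1 averaged 12.29 ± 0.50 at day 3, against 10.04 ± 0.53 at day 0, a difference of 2.26 ± 0.24 (adjusted p = 0.0148). It was 2.25 in the PKm1 knock-in, 2.14 in the PKm2 knock-in and 2.39 in the wild type line. A second Gdf1 probe was near background, at 3.38 to 5.04. From day 0 to day 3 that probe went from 4.67 to 3.72 in wild type cells and was higher at day 3 in both knock-in lines. In the RefSeq table Gdf1 and Cers1 overlap. The signal of the Gdf1 probes, the one called included, cannot be assigned to 1 of these genes here.

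In the other roles 0 genes were called between day 3 and day 0. Among co-receptors and convertases, 0 of 4 were called, and Pcsk6, a convertase of the Nodal precursor, differed by -1.42 ± 0.38 (adjusted p = 0.0881). In the fit the 4 receptor genes tested all had lower values at day 3, with a median of -0.77. This did not hold in each line, since Tgfbr1 was 9.64 at day 0 and 9.75 at day 3 in PKm1 knock-in cells. Tgfbr2, well above background on 2 of 3 arrays at day 3, differed by -2.40 ± 1.19 (adjusted p = 0.254). Acvr2a, the other activin type II receptor, averaged 6.81 ± 0.14 at day 3 against 7.82 ± 0.72 at day 0 (adjusted p = 0.116). Smads and their DNA-binding partners, 6 genes, had a median of 0.12, with Smad2 at 0.45 and Foxh1 at 0.31. Of the 9 intracellular antagonists and co-repressors the co-repressor gene Tgif2 differed by 0.91 ± 0.24 (adjusted p = 0.0825). Among the 4 secreted antagonists Fst, which encodes the activin-binding follistatin, averaged 9.13 ± 0.75 at day 3 against 9.99 ± 1.09 at day 0 (adjusted p = 0.662).

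The mesendoderm genes that Nodal signalling is known to induce had a median difference of 0.18 at day 3 against day 0, with 0 of 6 called. The homeobox gene Gsc was well above background on 1 of 3 arrays at day 3 and 3 of 3 at day 0, and was not called (adjusted p = 0.192). At day 7 against day 0, 0 of the 40 pathway genes were called and their median difference was 0.04. In the fit over the 3 lines the mesendoderm genes had positive differences in 6 of 6, with a median of 1.28 against -0.04 over all genes, and 0 of 6 were called. This did not hold in each line. In PKm2 knock-in cells Eomes was 9.22 at day 0 and 8.62 at day 7, and Gsc was lower and not well above background at day 7. Lhx1 was 5.73 and 5.81 there, and Foxa2, Hhex and Sox17 were higher at day 7. Foxa2, a transcription factor of endoderm, had log2 signals on days 0, 3 and 7 of 4.14, 5.35 and 13.08 in PKm1 knock-in cells, 6.44, 5.62 and 8.37 in PKm2 knock-in cells, and 4.85, 6.08 and 10.33 in wild type cells. It was highest at day 7 in every line, by 1.93 over day 0 in the PKm2 knock-in and 5.48 in the wild type line, and day 7 against day 0 was not called (adjusted p = 0.167). Sox17, another endoderm factor, was higher at day 7 than at day 0 by 1.15 in the PKm2 knock-in and 3.91 in the wild type line (adjusted p = 0.229). In the PKm1 knock-in line both genes were not well above background at day 0, so that no exact difference is given for it or for the 3 lines together. Both are also on the visceral endoderm list, whose sum was highest on the PKm1 knock-in array of day 7, as was Foxa2, and the part of those cells was not tested. Foxa2, Gsc, Hhex and Lhx1 are also on the anterior visceral endoderm list.

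Among ligands at day 7, Tgfb2 differed from day 0 by 1.94 ± 0.87 (adjusted p = 0.375) and Inhbb, which encodes an activin subunit, by -1.76 ± 0.49 (adjusted p = 0.218). Cfc1, which encodes an EGF-CFC co-receptor, differed by 1.60 ± 1.03 (adjusted p = 0.497). Between day 7 and day 3 limma called 0 of the 40, with a median of 0.21, and 10 once the day 7 array of the PKm2 knock-in line was left out, where 15.9 percent of all genes were called. With the slide as a block it called 9 of the 40, where 6.53 percent of all genes were called. That array was alone on its slide, so the slide block also takes it out in effect, and the 2 settings are not separate checks. Between lines 0 of the 40 were called in each of the 3 comparisons. The PKm2 knock-in line differed from the wild type line by -1.38 ± 0.44 in Smad3 (adjusted p = 0.256), and its difference was not called in Gsc (adjusted p = 0.245), which was well above background on 1 of 3 PKm2 knock-in arrays. The PKm1 knock-in line differed from the wild type line by -1.32 ± 0.49 in Inhbb (adjusted p = 0.358) and by 0.86 ± 0.24 in Gdf1 (adjusted p = 0.236).

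**Figure D5:**
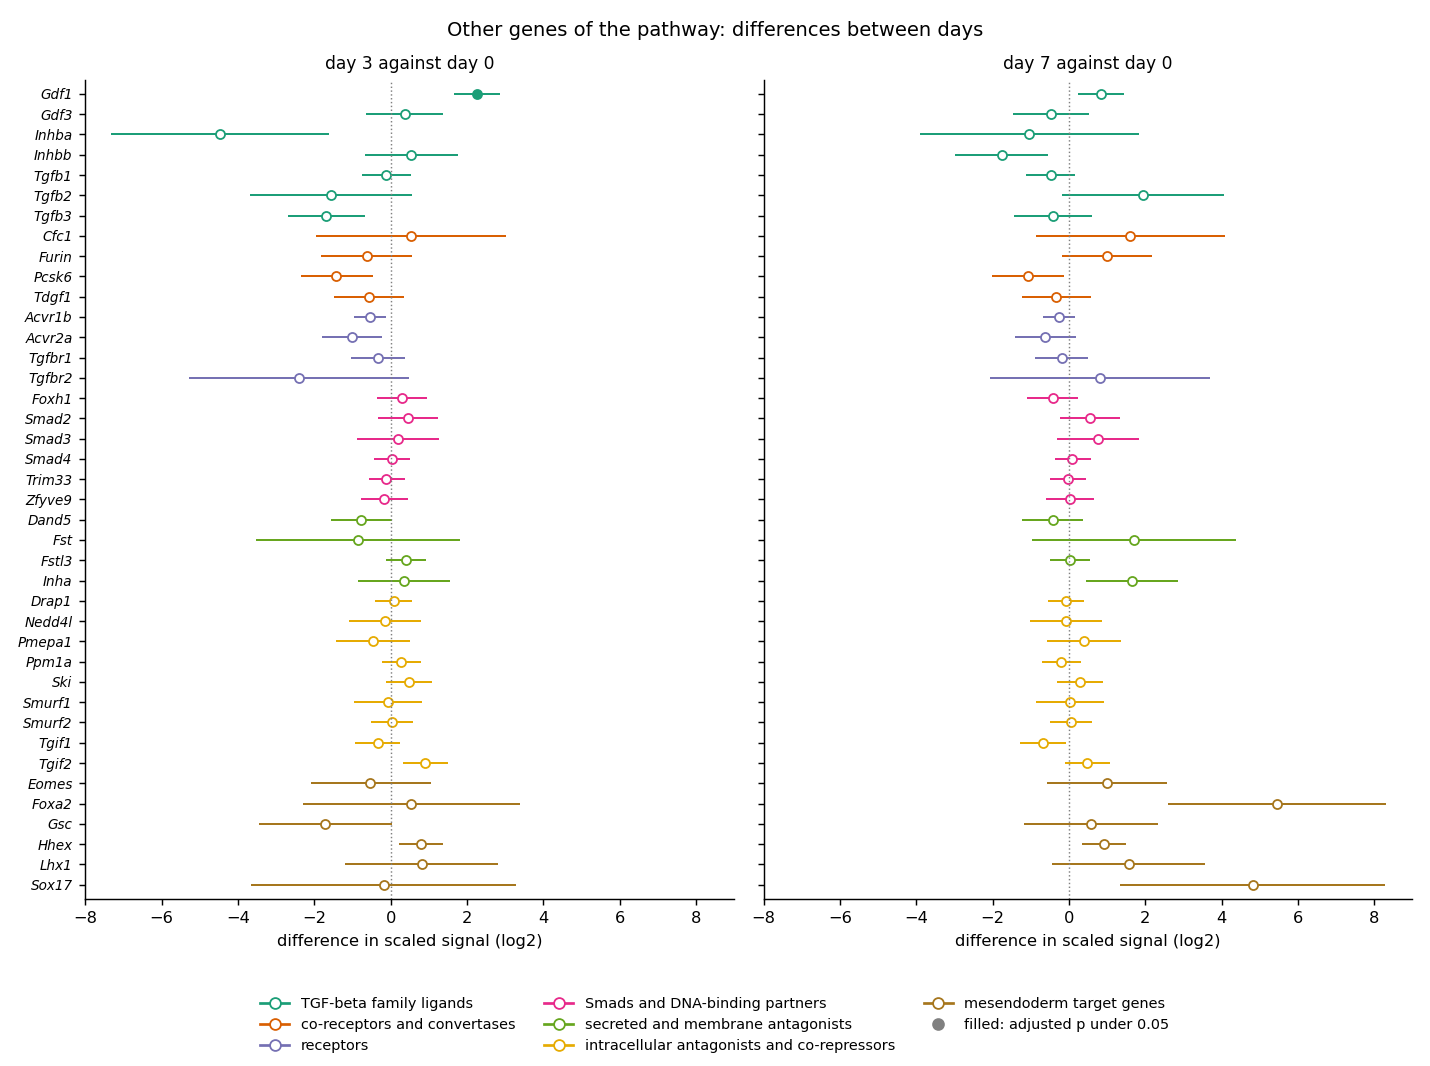
Log2 differences in scaled signal for the 40 other pathway genes tested, by role, at day 3 and at day 7 against day 0, with the fitted value (point) and 95 percent interval (bar) over 3 lines. Gdf1 at day 3 (2.26) is the one filled point, which marks an adjusted p under 0.05, and the 6 mesendoderm genes all lie above 0 at day 7; values of Foxa2, Gsc, Inha, Inhba, Sox17 and Tgfbr2 include arrays not well above background.

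Over the 9 arrays the 7 genes did not share 1 pattern. Of their 21 pairs, Pearson correlations of log2 signal were 0.80 for Nodal with Smad7, 0.78 for Lefty1 with Lefty2 and 0.72 for Lefty1 with Skil, and Nodal correlated with Cer1, which was well above background on 3 of the 9 arrays, at -0.51. Nodal and Smad7 were both lowest on the PKm1 knock-in array of day 7, at 11.34 and 10.50. Smad7 lay between 11.34 and 11.63 on the others, so its correlations rest largely on that 1 array. Among all tested genes, Zc3h3, Zscan10 and Rfng were most like Nodal, each at 0.95. Ptch1, which encodes the Hedgehog receptor, was most like Lefty1 at 0.97. Krt9 and Drg2 were most like Lefty2 at 0.92, Dok2 and Pacs1 most like Skil at 0.97, and Zfp346 most like Acvr2b at 0.97. Tph1 and Tuba8 were most like Cer1, and Polr3f, Rbmxl2 and Rpp25 most like Smad7, all at 0.98. With 9 arrays that share lines, days and slides and 15016 genes to choose from, these values are descriptions.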

How the data were processed

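Total RNA of each sample was labelled with Cy3 and read on a 1-colour array, per the labels' protocols. The deposited scanner files hold the intensity of each spot after background subtraction by Agilent Feature Extraction 10.10, per the file headers. In the authors' value table each intensity is that of the scanner file after rounding (largest difference 0.497 percent), and it served as an alternative. The array annotation is on build mm9, per the file headers.

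Control spots and outlier spots were left out and the spots of a probe averaged. Of 55681 probes, 27235 matched a gene by RefSeq accession. Signals were scaled to the 75th percentile of their array, floored at 5 and log2 transformed. A gene was read from its brightest probe, with a minimum of 3 arrays on which it was well above background. The additive model was fitted with limma 3.58.1 (R 4.3.3, and the data.table package, version 1.17.8), a script tested on simulated data, and the number of arrays limits its precision. Tables and plots used Python 3.11.15, numpy 2.4.6, pandas 2.3.3 and matplotlib 3.10.9.

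Each of the 7 genes was read in every comparison. For Cer1 the text gives no size from the main fit where a group mixed arrays above and at background. From each pathway role the text draws called genes (up to 4) or, where none was called, genes among the 2 with the largest difference. For each of the 7 genes it draws on the 3 genes with the highest correlation, leaving out provisional symbols. Some results are not reported here, and the counts of pathway genes leave them out. Members and gene lists were chosen with earlier results of these data known. Alternatives covered scaling, background correction (normexp on the median foreground), dim-probe filter, floor, choice of probe, moderation, arrays in the fit, block, slide, threshold, and each line, day or array left out.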

Additional observations from a re-analysis of the deposited data

Results flagged for a closer look

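Changes between days that ran in opposite directions in different lines, by more than 0.5 each way on the log2 scale, are listed here. With 1 array per line and day, none of these differences was tested. The Cer1 difference between day 7 and day 0 was -1.99 in the PKm2 knock-in and 7.74 in the wild type line, a gap of -9.73, and the PKm2 knock-in array of day 7 and the wild type array of day 0 were not well above background. The Lefty2 difference between day 3 and day 0 was -0.65 in the PKm2 knock-in and 2.12 in the PKm1 knock-in line, a gap of -2.77. Its difference between day 7 and day 3 was 1.09 in the PKm2 knock-in and -2.64 in the PKm1 knock-in line, a gap of 3.73. Its difference between day 7 and day 0 was -0.52 in the PKm1 knock-in and 0.86 in the wild type line, a gap of -1.38. Groups of 3 arrays are too small for a check for outlying samples.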

How the results depend on the processing

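Of the 7 genes, the 2 called between day 3 and day 0 became 0 with quantile normalization, with scaling to the probes detected on all arrays and with no filter, and 1 with the slide as a block, which kept Lefty1 (adjusted p = 0.0437) and lost Skil (0.0535). With a line or an array left out the count was 0 to 2. Over 25 settings Lefty1 lost its call in 13 and Skil in 15, and neither changed direction. Between day 7 and day 3 the count was 1 with the slide as a block and 0 to 2 with a line or an array left out. The 1 was Cer1, whose call has the limit given above. The slide term also takes up the PKm2 knock-in array of day 7, which was alone on its slide. In the other 4 comparisons the count was 0 under all 27 settings. Direction changed for these differences, none of them called. Acvr2b differed between day 3 and day 0 by -0.09 with quantile normalization and -0.02 with scaling to detected probes, and between day 7 and day 3 by 0.09 and 0.01. Smad7 differed between the PKm2 knock-in and wild type lines by 0.00 with quantile normalization and -0.13 with the slide as a block. With that block Lefty2 differed by -0.29 between day 7 and day 0 and by 0.10 between the PKm1 knock-in and wild type lines, and Cer1 by 0.54 between the PKm2 knock-in and wild type and by 1.40 between the PKm2 and PKm1 knock-in lines. With a line, day or array left out, differences whose direction changed ranged as follows. Between day 3 and day 0 the range was -2.68 to 0.35 for Cer1 and -0.18 to 0.10 for Smad7, and between day 7 and day 0 -0.17 to 0.11 for Acvr2b and -0.29 to 0.89 for Lefty2. Between the PKm1 knock-in and wild type lines it was -2.36 to 0.77 for Cer1, -0.87 to 0.86 for Lefty1 and -0.68 to 0.60 for Lefty2. Between the PKm2 knock-in and wild type lines it was -3.54 to 1.32 for Cer1, -1.06 to 0.45 for Lefty2, -0.01 to 0.61 for Skil and -0.06 to 0.22 for Smad7. Between the PKm2 and PKm1 knock-in lines it was -2.20 to 1.97 for Cer1, -1.96 to 0.14 for Lefty1, -1.28 to 0.59 for Lefty2, -0.03 to 0.68 for Nodal and -0.22 to 0.38 for Skil. Every Cer1 value among these rests in part on arrays at or near the floor, so it shows a change of direction and gives no size. The cause of the changes in direction was not tested. Among all genes, the 608 calls between day 3 and day 0 became 927 after normexp, 149 with no filter, 1008 with trend and robust moderation, 1433 from only the arrays compared and 0 to 1260 with a line or array left out. The 14 between day 7 and day 0 ranged from 0 to 227 and the 0 between day 7 and day 3 from 0 to 2389, the highest of both once the day 7 array of the PKm2 knock-in line was left out. Days were paired by line and lines by day in the model. With no block the calls among all genes were 479 between day 3 and day 0, 9 between day 7 and day 0 and 6 between day 7 and day 3, and those among the 7 genes were still 2, 0 and 0. The labels number no replicates, so no other pairing was tried.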
